A study of Mus musculus with 18 samples.

Results

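The mRNA abundance of 36 genes was followed in mouse gracilis muscle after clenbuterol, a beta-adrenergic agonist that increases muscle mass. They were 19 cytosolic aminoacyl-tRNA synthetase genes and 17 genes of the ATF4 and endoplasmic reticulum (ER) stress response. The genes were taken by name, and each was represented by the probe set with the highest mean log2 signal among those annotated to it on the MOE430A and MOE430B chips. All 36 genes were measured, out of 18161 genes with a single symbol among 45037 probe sets. The choice of probe set used no difference between treatments, but the list of genes was drawn up with earlier results of these data known. Muscle came from young male C57BL/6J mice, a few weeks old, in 3 groups. The 24 h group received vehicle intraperitoneally for 9 days and clenbuterol at 1 mg/kg on the last day, the 10 D group received clenbuterol at 1 mg/kg for 10 days, and the control (C) group received vehicle for 10 days. All muscles were collected 24 h after the last injection. RNA of 3 mice was combined into a pool, with 3 pools per group, and each pool was hybridised to both chips, so that 18 arrays were made. The mice had been chosen for large responses in weight gain and blood urea nitrogen, and whole cages had been assigned to a treatment, so pools of a group describe selected animals and are not fully independent.

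An aminoacyl-tRNA synthetase joins 1 amino acid to its transfer RNAs, the step that supplies the ribosome, and cytosolic synthetases are named by the letter of their amino acid. When uncharged tRNA, unfolded ER proteins or other stresses activate a kinase of the initiation factor eIF2 alpha, general translation slows while the mRNA of the transcription factor ATF4 is translated. ATF4, with a C/EBP partner, binds amino acid response elements and is known in mouse and human cells to raise transcription of many synthetases, of the enzymes that make asparagine and serine, and of CHAC1 and TRIB3. The ER arm adds XBP1 and the chaperone BiP (Hspa5). Growing muscle also draws on synthetases for protein synthesis.

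The DNA before some of these genes carries the elements through which ATF4 and ER stress factors act, and the sequences are shown so that they can be set beside the values of the genes holding them. RefSeq windows around the transcription start (GRCm38.p6) were read for 11 of the 19 synthetase genes and all 17 stress genes. The core TGATGNAA of the amino acid response element, read on both strands, was in a window of 4 of 11 synthetase genes (Gars1, Iars1, Tars1 and Yars1) and of 5 of 17 stress genes (Trib3, Asns, Chac1, Herpud1 and Nupr1). It occurred in 3.969% of all 32851 windows. The 6 stretches printed here, which lie wholly before the start, are given 5′ to 3′ on the strand of the gene, with the core in capitals.
Gars1: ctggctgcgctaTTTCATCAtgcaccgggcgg
Tars1: ccaggagtcccgTTGCATCAgctggtt
Asns: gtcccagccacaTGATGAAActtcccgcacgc
Chac1: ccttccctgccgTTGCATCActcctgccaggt
Herpud1: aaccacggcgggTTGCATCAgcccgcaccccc
Nupr1: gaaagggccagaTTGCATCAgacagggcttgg
They lie at chr6:55037959-55037990 (plus strand, Gars1), chr15:11399659-11399685 (minus, Tars1), chr6:7693213-7693244 (minus, Asns), chr2:119351037-119351068 (plus, Chac1), chr8:94386305-94386336 (plus, Herpud1) and chr7:126625561-126625592 (minus, Nupr1). The same 8 letters, TTGCATCA, stood before 4 of these genes (Chac1, Herpud1, Nupr1 and Tars1). A CRE, TGACGTCA, was in 1.79% of all windows and among the members only before Ppp1r15a. The ER stress element, CCAAT followed after 9 bases by CCACG, was in 0.119% of all windows and among the members only before Hspa5. In the next stretches capitals mark the CRE of Ppp1r15a (chr7:45526269-45526292, minus strand) and the whole ER stress element of Hspa5 (chr2:34772013-34772055, plus strand).
Ppp1r15a: ccgcctctccggTGACGTCAgcac
Hspa5: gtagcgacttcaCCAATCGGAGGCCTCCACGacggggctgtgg
A match of letters is a description of the sequence and does not show binding.

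Levels are given as multiples of the median signal of the array, and log2 changes were fitted with limma to 33752 probe sets with 3 pools per group. An adjusted p (Benjamini-Hochberg over both chips) under 0.1 was called a change. An exact permutation test of 3 pools against 3 cannot give a p below 0.1. The median signal of an array was 30.8 to 88.4 on MOE430A and 13.2 to 37.1 on MOE430B. Treated pools numbered 2, of the 24 h and of the 10 D group, deviated alike from their group means: the deviations correlated at 0.56 on MOE430A and 0.16 on MOE430B across probe sets, which are not independent replicates, and the arrays of these pools had the lowest medians of their groups. Counts are therefore also given without these 2 pools, a choice made after seeing the data. Levels of 8 skeletal muscle fibre markers summed to 1170 to 1700 in the 24 h pools, 1050 to 1870 in the 10 D pools and 1460 to 2240 in the C pools, which overlapped. Levels of 3 neutrophil markers summed to 3.99 to 5.49 in the 24 h pools, 2.06 to 3.57 in the 10 D pools and 1.30 to 2.30 in the C pools, with 1 of the 3, S100a8, called higher at 24 h (log2 change 4.34, adjusted p = 0.044 in limma). The C signals of S100a8 (levels 0.205, 0.0354 and 0.196) were too dim for the test, which it entered only through its treated pools. The size of its change is therefore uncertain. The 24 h pools of S100a9 and Csf3r overlapped with C. Levels of 3 lymphocyte markers summed to 1.94 to 2.77 in the 24 h pools, 3.33 to 3.99 in the 10 D pools and 4 to 4.54 in the C pools, and none was called. The 5 macrophage markers summed to 18 to 26.1 in the 24 h pools, 17.8 to 22.2 in the 10 D pools and 14.9 to 21.0 in the C pools, and no marker of these lists had a level of 0 in any pool. The summed levels of 3 skin markers were 1.8 to 2.91 in the 24 h pools, 2.65 to 6.52 in the 10 D pools and 2.99 to 12 in the C pools, so that the 24 h pools lay below C. For 4 endothelial markers the sums were 18.1 to 23.4 in the 24 h pools, 13.3 to 16.4 in the 10 D pools and 16.8 to 19.3 in the C pools, so that the 10 D pools lay below C, and no skin or endothelial marker was called. The part of these cell types in the results below was not tested, and in bulk muscle fewer cells of a type and less RNA per cell cannot be told apart.

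At 24 h the synthetase mRNAs stood above C in most cases, and Eprs1 alone passed the threshold. Of the 19 genes 14 were higher and 5 lower (73.7% higher, against 51.8% of all probe sets), with a median log2 change of 0.36 beside 0.02 over all probe sets. Of these, 1 synthetase was called higher, beside 0.329% of all probe sets called higher at 24 h, and none was called lower (0.127% of all). At an unadjusted p under 0.05, 6 were higher and 0 lower, beside 5% and 3.55% of all probe sets. In 7 genes (Eprs1, Gars1, Mars1, Nars1, Rars1, Wars1 and Yars1) every 24 h pool lay above every C pool, and in 0 genes every 24 h pool lay below, beside 9.6% and 7.23% of all probe sets. Without the treated pools numbered 2, 18 synthetases were higher and 1 lower, the median was 0.46, and 2 genes (Eprs1 and Yars1) were called, beside 1.77% of all probe sets called in either direction. These pools were left out after seeing the data, and 24 h pool 2 was the lowest of its group for 12 of 19 synthetases. A larger number of higher genes and a higher median therefore follow from the choice. With 10 D pool 2 alone left out, a pool outside this contrast, 432 probe sets (1.28% of all) were called at 24 h. Eprs1 was the only synthetase among them. The Yars1 call rests on 24 h levels of 5.5 and 20.0. Without 24 h pool 2 alone no member was called at 24 h.

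**Figure D1:**
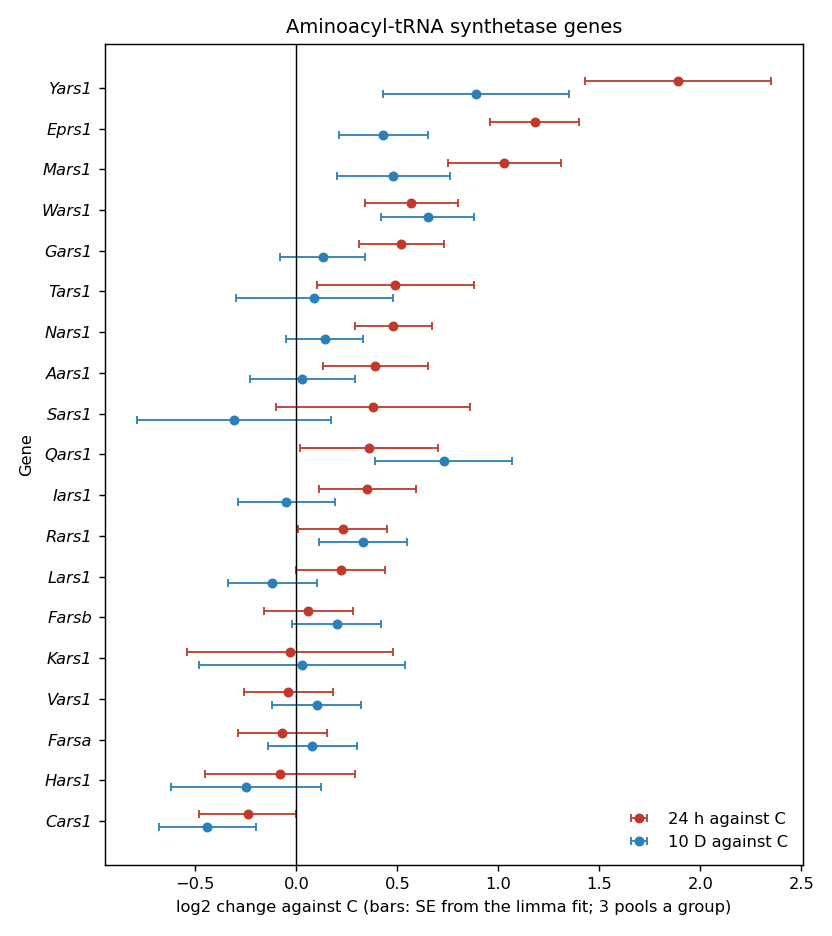
Log2 change of the 19 synthetase genes at 24 h and at 10 D against C, with the gene on the vertical axis, the points showing the limma estimate and the bars its SE (3 pools per group). The 24 h points of Yars1, Eprs1 and Mars1 lie at 1.89, 1.18 and 1.03, and those of 5 genes lie below 0.

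Eprs1 codes for the synthetase that charges both glutamate and proline tRNAs, a part of the multisynthetase complex. Its level (probe set 1452157_at) was 27.4, 40.3 and 30.3 in the 24 h pools, 18.4, 22.9 and 16.6 in the 10 D pools, and 13.6, 13.5 and 15.7 in the C pools. All 24 h pools lay above all 10 D pools, and all 10 D pools lay above all C pools. The mean level was 32.7 ± 6.77 at 24 h, 19.3 ± 3.24 at 10 D and 14.3 ± 1.21 in C (SD, n = 3 pools each). Eprs1 rose 2.27-fold at 24 h against C, a log2 change of 1.18 (SE 0.22, adjusted p = 0.080 in limma). The 10 D difference from C was 0.43 on the log2 scale (95% interval -0.06 to 0.92, adjusted p = 1.0 in limma), and the 10 D level was lower than at 24 h by a log2 difference of -0.75 (SE 0.22, adjusted p = 0.62 in limma). With 1 pool left out at a time the 24 h change ran between 1.02 and 1.30. The call held without 10 D pool 1 or 10 D pool 2 and was lost without any 24 h pool, any C pool or 10 D pool 3, with an adjusted p of up to 0.34 in limma. It was also lost with quantile, 75th percentile or cyclic loess scaling, at adjusted p of 0.12, 0.16 and 0.13 in limma. Its other probe sets read 1.00 and 0.70 at 24 h on MOE430A, with all 24 h pools above all C pools in both, and -0.03 on MOE430B, where the pools overlapped. At 10 D these probe sets read 0.06 and 0 on MOE430A and 0.64 on MOE430B, and the 10 D pools of each overlapped with C.

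Yars1, the tyrosine synthetase, had the highest log2 change among the 19 genes, and 1 pool set much of it. Its level (probe set 1460638_at) was 5.5, 4.38 and 20.0 in the 24 h pools, 3.92, 4.15 and 3.70 in the 10 D pools, and 2.00, 2.21 and 2.15 in the C pools. Every treated pool was above every C pool, and 24 h pool 3 stood far above the rest. In log2 terms Yars1 differed from C by 1.89 at 24 h (SE 0.46, adjusted p = 0.20) and 0.89 at 10 D (SE 0.46, adjusted p = 1.0), both from limma. Without 24 h pool 3 the 24 h change was 1.21, with an adjusted p of 0.18 in limma.

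Mars1, the methionine synthetase that charges initiator tRNA as well, was read on MOE430B (probe set 1455951_at). Its level was 16, 34.7 and 18.3 in the 24 h pools, 12.3, 17.1 and 15.5 in the 10 D pools, and 11.0, 9.79 and 11.2 in the C pools. Each treated pool was above each C pool, and the 24 h and 10 D pools overlapped. Mars1 gave log2 changes of 1.03 at 24 h (SE 0.28, adjusted p = 0.25 in limma) and 0.48 at 10 D (SE 0.28, adjusted p = 1.0 in limma). Without 24 h pool 2, the highest, the 24 h change was 0.69.

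Wars1, the tryptophan synthetase, which interferon also induces, stood above C by a like amount at both times. Its level (probe set 1434813_x_at, whose suffix marks probes that can cross-hybridise) was 6.38, 4.57 and 6.31 in the 24 h pools, 5.63, 5.25 and 7.34 in the 10 D pools, and 3.53, 3.77 and 4.22 in the C pools. All treated pools lay above all C pools. The log2 change was 0.57 at 24 h (SE 0.23, adjusted p = 0.50 in limma) and 0.65 at 10 D (SE 0.23, adjusted p = 1.0 in limma). The probe set 1415694_at without that suffix gave 0.63 at 24 h and -0.11 at 10 D, with pools that overlapped with C at both times. Its levels were 2.14, 1.59 and 7.02 in the 24 h pools and 1.83, 2.08 and 1.71 in the C pools. Pool 3 thus set most of its 24 h value.

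**Figure D2:**
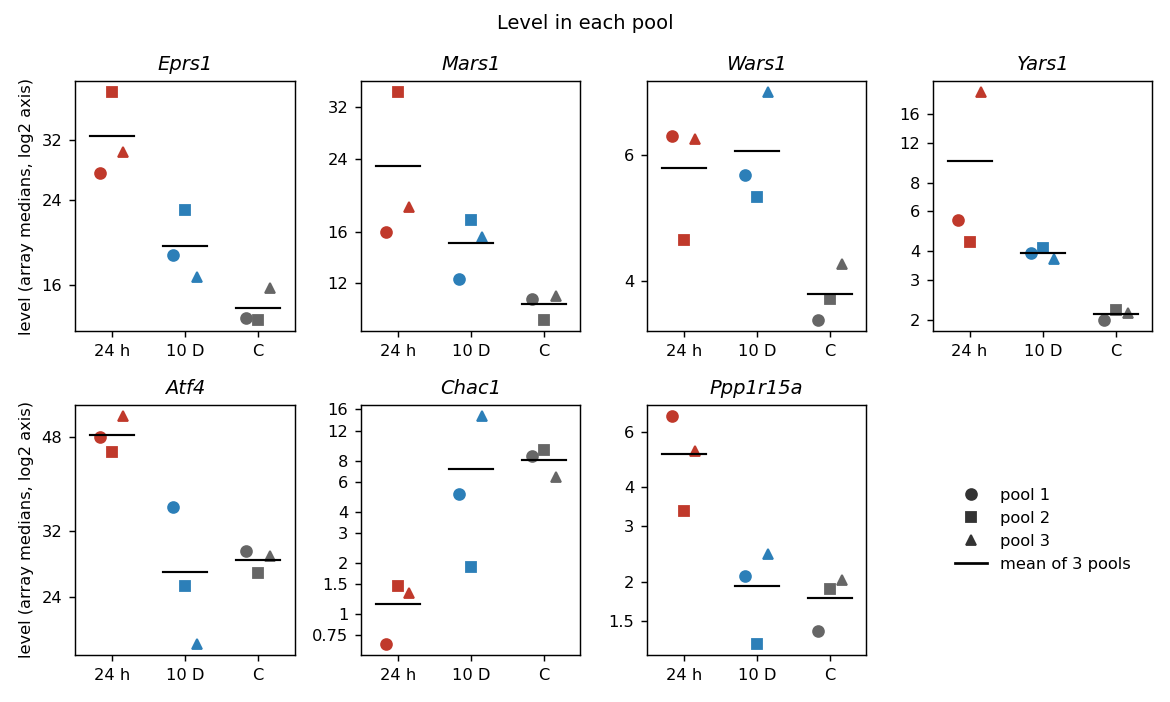
Level in each pool of the 4 synthetase genes and 3 stress genes with an unadjusted F p under 0.05, on log2 axes in array medians, by group, with symbols for the pool numbers and a line at the mean of 3 pools. Eprs1, Yars1, Atf4 and Ppp1r15a are highest at 24 h in all 3 pools, Chac1 is lowest there at 0.670 to 1.46, and 24 h pool 3 of Yars1 stands alone at 20.0.

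The next genes by their F test were Gars1 and Nars1, the glycine and asparagine synthetases. Gars1 had levels of 11.4, 13.9 and 13.5 in the 24 h pools and 9.54, 8.74 and 8.69 in the C pools, and Nars1 had 18.3, 20.1 and 21.3 in the 24 h pools and 13.5, 13.3 and 16 in the C pools. The groups did not overlap in either gene, at log2 changes of 0.52 (SE 0.21) and 0.48 (SE 0.19), each with an adjusted p of 0.51 in limma. At 10 D both stood near C, at 0.13 and 0.14. Qars1, the glutaminyl-tRNA synthetase, showed 0.36 at 24 h and 0.73 at 10 D (95% interval -0.03 to 1.5), but its other tested probe sets gave 0.09 and -0.21 at 24 h and -0.18 and -0.03 at 10 D. The other 7 genes that were higher at 24 h (Aars1, Farsb, Iars1, Lars1, Rars1, Sars1 and Tars1) lay between 0.06 and 0.49, and 1 of them, Rars1, had 24 h pools that did not overlap with C.

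The 5 synthetases lower at 24 h (Cars1, Farsa, Hars1, Kars1 and Vars1) lay between -0.24 and -0.03, and the pools of every one overlapped with C. The interval for Vars1, the valine synthetase, was -0.52 to 0.44, and that for Kars1, the lysine synthetase, was -1.16 to 1.09. Hars1, the histidine synthetase, had a second probe set with a log2 change of 0.58 at 24 h (adjusted p = 0.43 in limma) and every 24 h pool above every C pool, against -0.08 for the brighter probe set. The paper lists that second probe set, 1438510_a_at, as differentially expressed by its analysis of variance, and as higher at 24 h. The 2 chains of phenylalanine synthetase, Farsa and Farsb, read -0.07 and 0.06. Their other tested probe sets ran to 0.59 and -0.29 for Farsa and to -0.56 and -1.04 for Farsb.

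At 10 D against C 14 of 19 synthetases were again higher and 5 lower (73.7% higher, against 51.6% of all probe sets), but the differences were smaller, with a median log2 change of 0.10 beside 0.01 over all probe sets. That median was 0.01 without 10 D pool 1 and 0.21 without 10 D pool 2. Both contrasts use the same C pools, so their signs are not independent. No synthetase was called, as was no probe set at all (0% of 33752), and 1 was higher at an unadjusted p under 0.05 (Wars1) and 0 lower, beside 2.64% and 1.92% of all probe sets. In 4 genes (Eprs1, Mars1, Wars1 and Yars1) all 10 D pools lay above all C pools and in 0 below, beside 5.76% and 4.52% of all. Eprs1 and Wars1 also had probe sets whose 10 D pools overlapped with C. Set directly against 24 h, the 10 D level was higher in 7 and lower in 12 synthetases (36.8% higher, against 48.9% of all probe sets), with a median of -0.34 beside -0.01 over all probe sets. None was called (0.0504% of all probe sets in either direction, 0.0148% higher and 0.0356% lower), and at an unadjusted p under 0.05 0 were higher and 1 lower (Eprs1), beside 2.52% and 2.95% of all. No synthetase had every 10 D pool above every 24 h pool and 3 had every one below (Eprs1, Nars1 and Yars1), beside 4.17% and 5.1% of all. By the F test over the 3 groups no synthetase and no stress gene was called, beside 0.216% of all probe sets, and 4 of 19 synthetases and 3 of 17 stress genes had an unadjusted p under 0.05, beside 6.62% of all.

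Pool 2 of the 24 h group set the lower edge of most members. Taken over the 19 synthetases, the median log2 difference of a pool from the C mean was 0.36, 0.02 and 0.49 in the 24 h pools, 0.37, -0.01 and 0.12 in the 10 D pools, and 0.06, -0.08 and 0.06 in the C pools. The 24 h pool 2 was the lowest of its group for 12 of 19 synthetases and 12 of 17 stress genes. It was nevertheless the highest for 4 synthetases, Eprs1 and Mars1 among them. Pool 2 of the 10 D group and pool 2 of the C group were each the lowest for 10 of 19 synthetases. Among the 17 stress genes they were the lowest for 8 and 6.

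**Figure D3:**
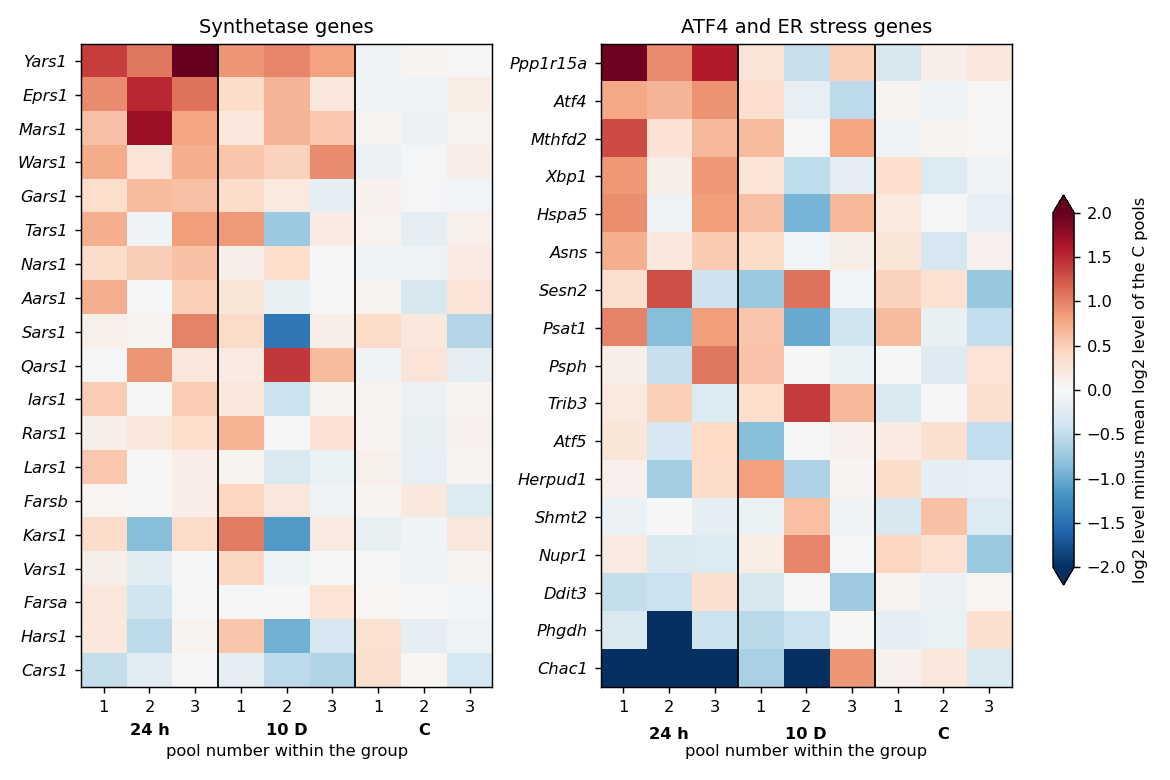
Log2 level of every member in every pool minus the mean log2 level of the 3 C pools, with synthetases on the left and stress genes on the right, genes as rows and pools as columns in the order 24 h, 10 D and C, colours ending at -2 and 2. The upper synthetase rows are red in all 24 h pools, rows such as Tars1, Aars1 and Kars1 are paler or blue in 24 h pool 2 but not in pools 1 and 3, and Chac1 is blue in all 24 h pools.

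The stress genes differed among themselves in sign at 24 h. Of 17 genes 11 were higher and 6 lower (64.7% higher, against 51.8% of all probe sets), with a median log2 change of 0.24 beside 0.02 over all probe sets, and a range of -2.86 to 1.49. None was called in either direction, beside 0.456% of all probe sets, by limma. At an unadjusted p under 0.05, 3 were higher (Atf4, Mthfd2 and Ppp1r15a) and 1 was lower (Chac1), beside 5% and 3.55% of all probe sets. In those 3 genes all 24 h pools lay above all C pools, and in Chac1 and Phgdh all 24 h pools lay below, beside 9.6% and 7.23% of all. The median was 0.07 without 24 h pool 3, 0.1 without 24 h pool 1 and 0.08 without C pool 3. Without the treated pools numbered 2, 10 genes were higher and 7 lower, the median was 0.32, and 3 were called (Chac1, Hspa5 and Ppp1r15a), beside 1.77% of all probe sets called in either direction. This setting was chosen after seeing the data, and 24 h pool 2 was the lowest of its group for 12 of 17 stress genes. Leaving out 24 h pool 2 alone gave no call among them at 24 h. With 10 D pool 2 alone left out, Chac1 and Ppp1r15a were called at 24 h, beside 1.28% of all probe sets.

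**Figure D4:**
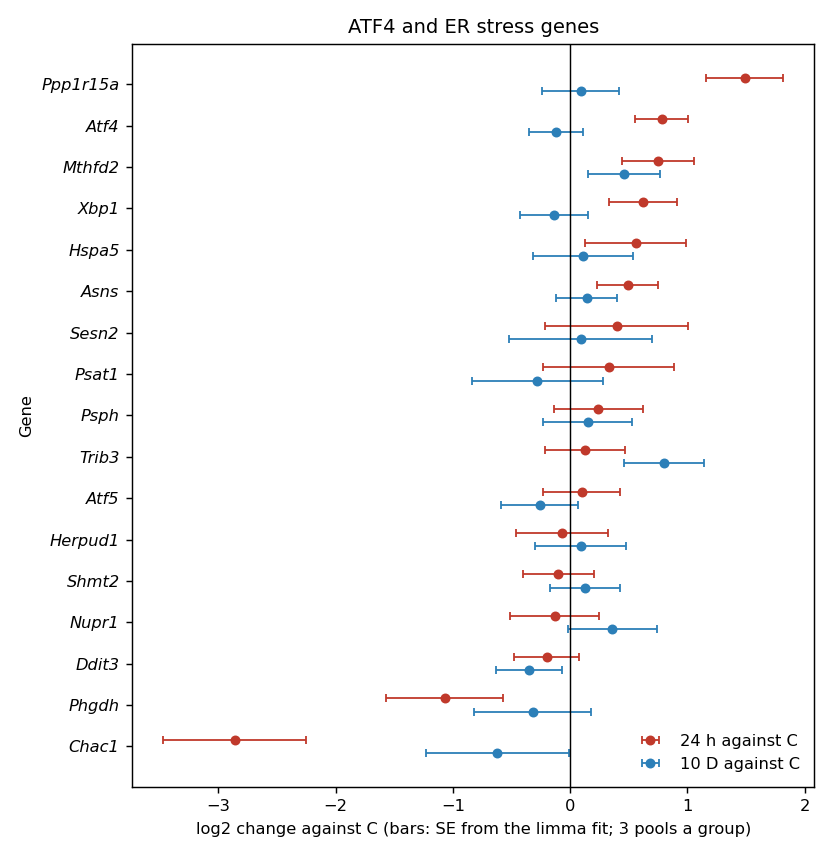
Log2 change of the 17 ATF4 and ER stress genes at 24 h and at 10 D against C, with the gene on the vertical axis, the points showing the limma estimate and the bars its SE (3 pools per group). At 24 h Ppp1r15a lies at 1.49 and Atf4 at 0.78, while Chac1 lies at -2.86 and Phgdh at -1.07.

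Atf4, the transcription factor at the centre of the response, had a level (probe set 1448135_at) of 48.0, 45.1 and 52.6 in the 24 h pools, 35.4, 25.2 and 19.6 in the 10 D pools, and 29.3, 26.6 and 28.6 in the C pools. The 24 h pools lay above all others, and the 10 D pools spread to both sides of C. The mean level was 48.5 ± 3.80 at 24 h, 26.7 ± 8.05 at 10 D and 28.2 ± 1.37 in C (SD, n = 3 pools each). Against C, Atf4 gave a log2 change of 0.78 at 24 h (SE 0.23, adjusted p = 0.31), -0.12 at 10 D (SE 0.23, adjusted p = 1.0), and -0.90 for 10 D minus 24 h (SE 0.23, adjusted p = 0.48), all from limma. A second probe set, 1438992_x_at, of the kind that can cross-hybridise, gave 1.13 at 24 h with an adjusted p of 0.11 in limma. At 10 D it gave 0.29, with every 10 D pool above every C pool, unlike the brighter probe set. ATF4 protein, which is regulated mainly through translation, was not measured.

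Ppp1r15a codes for GADD34, the subunit that brings a phosphatase to eIF2 alpha and so reverses the block on translation. Its level (probe set 1448325_at) was 6.73, 3.36 and 5.21 in the 24 h pools, 2.09, 1.27 and 2.44 in the 10 D pools, and 1.39, 1.89 and 2.02 in the C pools. The 24 h pools were above all others, and the 10 D and C pools overlapped. The log2 change was 1.49 at 24 h (2.81-fold, SE 0.33, adjusted p = 0.14 in limma) and 0.09 at 10 D (95% interval -0.64 to 0.83), and 10 D minus 24 h was -1.40 (SE 0.33, adjusted p = 0.39 in limma). Without both treated pools numbered 2 the 24 h change was 1.76 with an adjusted p of 0.015 in limma. That setting was chosen after seeing the data and leaves out the lowest 24 h level (3.36). Without 24 h pool 2 alone Ppp1r15a was not called. With 10 D pool 2 alone left out and all 24 h pools kept, it was called at 24 h.

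Chac1, an ATF4 and CHOP target in mouse and human cells whose product degrades glutathione, stood below C at 24 h. Its level (probe set 1451382_at) was 0.670, 1.46 and 1.32 in the 24 h pools, 5.06, 1.88 and 14.6 in the 10 D pools, and 8.47, 9.24 and 6.4 in the C pools. The 24 h pools lay below all others, and the 10 D pools spread from near the 24 h level to above C. Chac1 gave a log2 change of -2.86 at 24 h (0.137-fold, SE 0.61, adjusted p = 0.12), -0.62 at 10 D (95% interval -1.98 to 0.74, adjusted p = 1.0), and 2.25 for 10 D minus 24 h (SE 0.61, adjusted p = 0.54), all from limma. Without both treated pools numbered 2 the 24 h change was -3.08 with an adjusted p of 0.015 in limma, and 10 D minus 24 h was 3.19 with an adjusted p of 0.036 in limma. That setting, chosen after seeing the data, leaves out the highest 24 h level (1.46) and the lowest 10 D level (1.88). Without 24 h pool 2 alone Chac1 was called in neither contrast. With 10 D pool 2 alone left out and all 24 h pools kept, it was called in both. With 10 D pool 3 alone left out it was called at 24 h. Chac1 had 1 probe set on the chips.

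The other transcription factors and regulators of the branch stayed within their pools' spread at 24 h. Ddit3 (CHOP), the proapoptotic factor downstream of ATF4, had levels of 1.47, 1.52 and 2.57 in the 24 h pools and 2.16, 1.89 and 2.11 in the C pools, a log2 change of -0.20 (95% interval -0.82 to 0.43). Its other probe set gave 0.40. Atf5 read 0.10, Nupr1 -0.13 and Sesn2, a stress-induced inhibitor of mTORC1, 0.40, and another probe set of Sesn2 gave -0.72. Trib3, a pseudokinase that curbs ATF4 and AKT signalling, read 0.13 at 24 h and 0.80 at 10 D. Its level was 0.976, 2.00 and 1.19 in the 10 D pools and 0.617, 0.754 and 0.953 in the C pools, so that all 10 D pools lay above all C pools (SE 0.34, adjusted p = 1.0 in limma), and its second probe set gave 1.19 at 10 D.

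The enzymes of asparagine and serine synthesis and of 1-carbon metabolism were divided. Mthfd2, the mitochondrial folate enzyme, had levels of 3.44, 1.71 and 2.19 in the 24 h pools and 1.33, 1.44 and 1.41 in the C pools, which did not overlap (log2 change 0.75, SE 0.31, adjusted p = 0.53 in limma), and a second probe set gave 0.41. Asns, asparagine synthetase, read 0.49 (95% interval -0.10 to 1.07). Phgdh, which begins serine synthesis, had levels of 5.38, 1.17 and 4.88 in the 24 h pools and 5.77, 6 and 8.18 in the C pools. All 24 h pools lay below all C pools, at a log2 change of -1.07 (SE 0.50, adjusted p = 0.60 in limma), and pool 2 was far below the other pools. Without 24 h pool 2 the log2 change of Phgdh was -0.36. Its other 3 probe sets, all of the cross-hybridising kind, gave -0.68, -0.26 and -0.64. The later enzymes of the pathway, Psat1 and Psph, read 0.33 and 0.24, and Shmt2 read -0.10, with 0.39, 0.66 and 0.72 from its dimmer probe sets.

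The ER arm was higher in 2 of its 3 genes, short of the threshold. Xbp1, the transcription factor spliced upon ER stress, had levels of 18.9, 11.2 and 18.8 in the 24 h pools, 12.4, 7.23 and 9.12 in the 10 D pools, and 13.0, 8.55 and 9.85 in the C pools. The log2 change was 0.62 at 24 h (SE 0.29, adjusted p = 0.60) and -0.76 for 10 D minus 24 h (SE 0.29, adjusted p = 0.82), both from limma. Whether its probes separate spliced from unspliced mRNA was not examined. Hspa5, the ER chaperone BiP, had levels of 43.3, 21.1 and 40.8 in the 24 h pools and 26.1, 22.1 and 20.4 in the C pools, at a log2 difference of 0.56 (SE 0.43, adjusted p = 0.78 in limma). Pools 1 and 3 stood above all C pools while pool 2 lay among them. The other Hspa5 probe sets gave 0.65 on MOE430A and 0.07 on MOE430B, with 24 h pools that overlapped with C in both. On MOE430B (1447824_x_at, of the cross-hybridising kind) the 24 h levels were 17.8, 36.5 and 22.8, so pool 2 was the highest there. Herpud1, a part of ER-associated degradation, read -0.07 with a second probe set at -0.13.

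At 10 D against C 10 stress genes were higher and 7 lower (58.8% higher, against 51.6% of all probe sets), with a median of 0.09 beside 0.01 over all probe sets. None was called, as was no probe set at all (0%). Without 10 D pool 1 that median was -0.06. Only Trib3 had an unadjusted p under 0.05, with every 10 D pool above every C pool, beside 2.64% of all probe sets higher at that p and 5.76% with such pools. For 10 D minus 24 h, 6 were higher and 11 lower (35.3% higher, against 48.9% of all probe sets), with a median of -0.29 beside -0.01 over all. None was called, beside 0.0504% of all probe sets in either direction. At an unadjusted p under 0.05, 3 were lower (Atf4, Xbp1 and Ppp1r15a) and 1 was higher (Chac1), beside 2.95% and 2.52% of all probe sets. In Atf4 and Ppp1r15a every 10 D pool lay below every 24 h pool and in Chac1 every one lay above, beside 5.1% and 4.17% of all.

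Of the 9 members holding the amino acid response core, 6 were higher and 3 lower at 24 h. With or without the core, 73.7% of synthetases and 64.7% of stress genes were higher, beside 51.8% of all probe sets. Windows were read for 11 of the 19 synthetases, so members without the core are not a known group, and a link between core and change was not tested. Of the 6 genes with a printed amino acid response core, Gars1, Tars1 and Asns had log2 changes of 0.52, 0.49 and 0.49 at 24 h, Herpud1 and Nupr1 had -0.07 and -0.13, and Chac1 had -2.86. The other members with the core, Yars1, Iars1 and Trib3, had 1.89, 0.35 and 0.13. The same letters, TTGCATCA, precede Tars1 and Chac1. Ppp1r15a with its CRE read 1.49, and Hspa5 with its ER stress element read 0.56.

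The probe sets of a member did not always read alike. Over all tested probe sets of the synthetases, 25 of 35 were higher at 24 h and 10 lower, and over those of the stress genes 25 of 37 were higher and 12 lower.

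**Figure D5:**
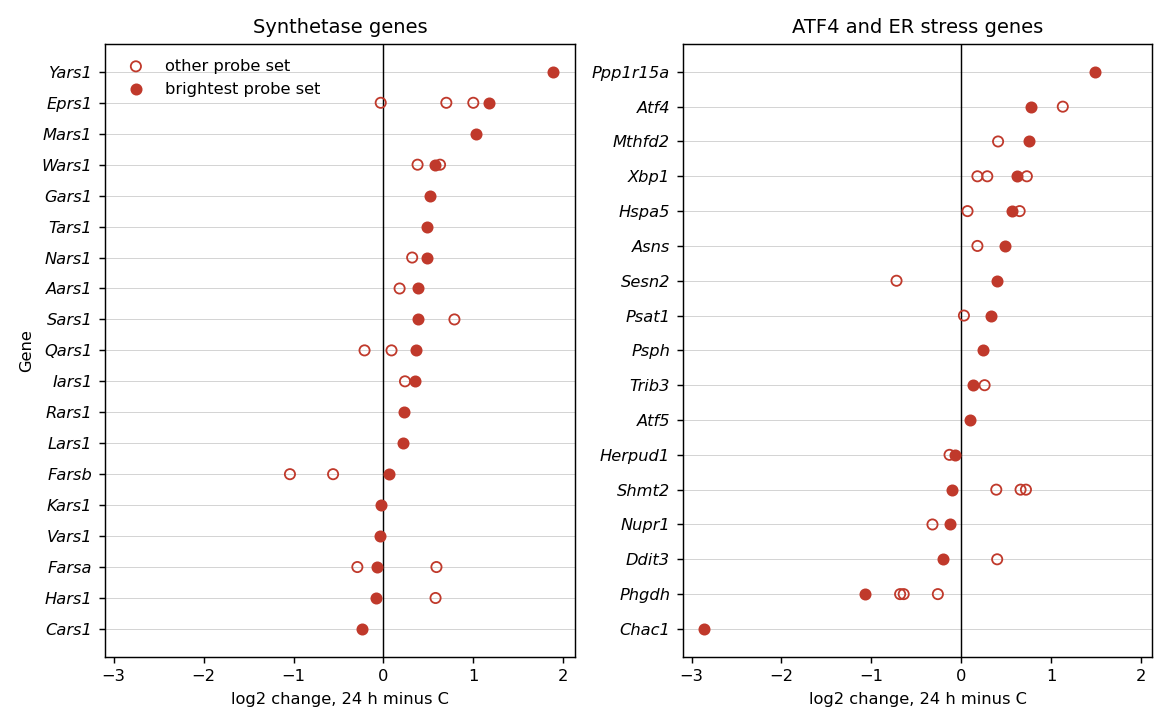
Log2 change at 24 h against C of every tested probe set of each member, synthetases on the left and stress genes on the right, with the brightest probe set of a gene filled and the others open. Probe sets of Atf4, Wars1 and Xbp1 lie on the positive side and those of Phgdh on the negative side, while those of Eprs1, Qars1, Hars1, Sesn2, Shmt2 and Ddit3 lie on both sides of 0.

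Genes around these members gave 1 call. Over all probe sets 0.456% were called at 24 h in either direction and 51.8% were higher, with a median of 0.02, so an absence of calls in a short list says little. Of the non-catalytic parts of the multisynthetase complex 3 were measured (Aimp1, Aimp2 and Eef1e1) with log2 changes of 0.02, 0.18 and 0.61 at 24 h, and Aimp2, a scaffold protein, had levels of 64.4, 62.7 and 78.9 in the 10 D pools and 45.6, 33.6 and 47.5 in the C pools (log2 change 0.71, adjusted p = 1.0 in limma). Of 16 mitochondrial synthetases 10 were higher and 6 lower at 24 h, with a median of 0.10, and none was called. The lowest was Vars2 at -1.95 (adjusted p = 0.30 in limma). Among 12 genes of eIF2, its exchange factor, kinases and phosphatases none was called, and Eif2b4, a subunit of the exchange factor, read 0.96 at 24 h (adjusted p = 0.23 in limma) with levels of 24, 13.8 and 20.6 in the 24 h pools and 9.65, 11.1 and 8.68 in the C pools. The kinases read -0.03 (Eif2ak1), 0.40 (Eif2ak2), 0.23 (Eif2ak3, PERK) and -0.19 (Eif2ak4, GCN2). Of 5 ER stress sensors and their proteases 4 were higher and none was called. Of 19 ER chaperones and degradation factors 16 were higher and 3 lower at 24 h, with a median of 0.37, and none was called. The smallest p-values were those of Hsp90b1 (0.59), Calr (0.65), Derl2 (0.72) and Hyou1 (1.07), with adjusted p of 0.32 to 0.43 in limma.

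Of 17 other ATF4-linked genes tested, 10 were higher and 7 lower at 24 h (58.8% higher, against 51.8% of all probe sets). Slc7a5 was called, beside 0.456% of all probe sets in either direction. Slc7a5 codes for the LAT1 transporter of leucine and other large neutral amino acids. Its level was 2.22, 3.20 and 2.85 in the 24 h pools, 0.879, 1.14 and 1.67 in the 10 D pools, and 0.153, 0.179 and 0.25 in the C pools, with no overlap between any of the groups. The log2 change was 3.84 at 24 h (adjusted p = 0.0026) and 2.65 at 10 D (adjusted p = 0.11), both from limma, and the C levels were far under the array median, so the size of the fold is uncertain. The C signals alone were too dim for the test, which Slc7a5 entered only through its treated pools. Slc3a2, the heavy chain that pairs with LAT1, read 0.13 at 24 h and -0.51 at 10 D. Ddit4 (REDD1), an inhibitor of mTORC1, had levels of 1.97, 2.22 and 1.23 in the 24 h pools, 6.41, 5.65 and 6.49 in the 10 D pools, and 3.19, 2.99 and 5.25 in the C pools. Its 24 h pools lay below and its 10 D pools above all C pools, at log2 changes of -1.07 (adjusted p = 0.26) and 0.74, and 10 D minus 24 h was 1.81 (adjusted p = 0.12), from limma. Atf3 read 1.18 and Eif4ebp1 0.91 at 24 h, with adjusted p of 0.40 and 0.48 in limma.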

How the data were processed

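The authors quantified each array with MAS 5.0, and the deposited values were linear signal intensities, not scaled between arrays. The chip is not named in the labels of the MOE430A arrays, which were placed by the deposited table that holds them. Signals were divided by their array's median, signals of 0 (18 values) were set to 0.05, and log2 was taken. Symbols are those of the platform annotation, brought up to date with RefSeq. Of 45137 probe sets, 100 on both chips were used once. Those with a mean log2 signal at or above the 25th percentile of their chip (14.1 on MOE430A, 6.97 on MOE430B, as signals) were tested, 33752 in all, and all 36 members passed. A model with 3 groups was fitted per chip in limma 3.58.1 (R 4.3.3; lmFit, eBayes with a trend, 6 residual degrees of freedom, two-sided), with Benjamini-Hochberg adjustment over both chips and calls at adjusted p under 0.1. The scripts were tested on simulated data. Labels name no batch, and the p-values measure the spread between pools. All 36 members are named. Full values are given where the unadjusted F p was under 0.05, and up to 4 examples of other members and of related lists by smallest p. Members, lists and rules were chosen with earlier results of these data known. Alternatives changed the scaling, filter, offset, trend, groups fitted, probe set rule, block and pools. The analysis without the treated pools numbered 2 was chosen after seeing the data. One promoter sequence is not reported here.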

Additional observations from a re-analysis of the deposited data

How the results depend on the processing

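The count of synthetases called at 24 h (1, Eprs1) was 0 with quantile normalization, 75th percentile scaling, cyclic loess, no intensity trend, or the methods' analysis of variance, and 0 to 1 with 1 pool left out. The count of stress genes called at 24 h (0) was 1 with quantile normalization, with a filter at the 50th percentile or with each chip adjusted on its own, and 2 with 75th percentile scaling, cyclic loess or only the groups compared. It was 0 to 2 with 1 pool left out, the genes being Chac1 and Ppp1r15a. The count of stress genes called for 10 D minus 24 h was 0 to 1 (Chac1, without 10 D pool 2), and the F test gave 0 to 1 synthetases and 0 to 1 stress genes. Without both treated pools numbered 2, limma called 2 synthetases and 3 stress genes at 24 h, 1 stress gene for 10 D minus 24 h, and 2 synthetases and 2 stress genes by the F test. Over 22 settings the adjusted p in limma at 24 h was 0.032 to 0.34 for Eprs1 (called in 10), 0.015 to 0.41 for Chac1 (called in 9), 0.015 to 0.49 for Ppp1r15a (called in 5) and 0.12 to 0.68 for Atf4 (called in 0), and none of these reversed. The 10 D change of Wars1 reversed to -0.11 with the brightest probe set not ending in _x_at or _s_at. The median of the stress genes at 10 D was 0.09, and -0.13 with the mean of all tested probe sets of a gene. At 24 h 13 synthetases were higher and 1 was lower in each of 20 planned settings that kept the probe set, and 6 stress genes were higher and 3 lower. At 10 D 9 synthetases were higher and 2 lower in each of them, and 2 stress genes (Mthfd2, and Trib3 in the 19 that kept its probe set) were higher and 2 lower. The cause of these shifts was not tested.

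All probe sets called at 24 h numbered 154, and 52 without the trend, 100 with the analysis of variance, 345 with only the groups compared, 24 to 432 with 1 pool left out, and 599 without both treated pools numbered 2. The labels give same-numbered pools no shared litter, batch or day. The departures of the 10 D and 24 h pools from their group means correlated at 0.39, 0.56 and 0.1 for pools 1, 2 and 3 on MOE430A and at 0.11, 0.16 and 0.01 on MOE430B, while pairs with C gave -0.07 to 0.05, so not every pair was over 0.1 and the pairing was not taken as given. With the pool number as a replicate block, 1 synthetase (Eprs1, adjusted p = 0.076 in limma) and 0 stress genes were called at 24 h among 209 probe sets called, and 3 probe sets, none of them members, were called at 10 D. Array signals give no count of molecules, and the number of pools limits the precision.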
